A study of Mus musculus with 2 samples.

Results

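This account covers 8 cadherin genes of the mouse embryo at embryonic day 7.0 (Cdh3, Cdh4, Cdh6, Cdh8, Cdh9, Cdh11, Cdh13 and Cdh20) and the 98 accessible regions within 50 kb of their starts. They are 8 of the 32285 genes and 98 of the 229480 regions (peaks) in the deposited tables. The genes were picked by name, from earlier results on these same data, because their RNA differed between cell types, so their RNA levels below are a description and carry no test. The working name for the set, lineage-restricted type II and atypical cadherins, holds only in part. Cdh3 (P-cadherin) and Cdh4 (R-cadherin) belong to the type I classical cadherins. Cdh6, Cdh8, Cdh9, Cdh11 and Cdh20 are type II cadherins, and Cdh13 (T-cadherin) is an atypical one. Of the 8 genes, 4 lie on chromosome 8 (mm10): Cdh8 and Cdh11 on the minus strand, with starts at 99416427 to 99416471 and 102785642, and Cdh3 and Cdh13 on the plus strand, with starts at 106510891 and 118283733. The files place Cdh6 (minus strand, 13173675) and Cdh9 (plus strand, 16728756 to 16778101) on chromosome 15. Cdh20 starts at 104768529 on chromosome 1 and Cdh4 at 179442431 to 179893909 on chromosome 2, both on the plus strand. For Cdh13, RefSeq begins the gene at 118140017, upstream of the files' start, and peaks around that position were not analysed. RefSeq also begins Cdh8 at 99417666 and Cdh6 at 13176407, upstream of the files' starts. Start peaks below are those at the files' starts.

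Cadherins are calcium-dependent adhesion receptors: the outermost domain of one molecule binds a cadherin on the next cell, and cells that carry the same cadherin tend to stay together. The tails of the type I and type II classical cadherins bind catenins, which tie the junction to the actin cytoskeleton, whereas Cdh13 has no such tail and is held in the membrane by a lipid anchor. At gastrulation, cells leave the epiblast through the primitive streak and change from E-cadherin (Cdh1) to N-cadherin (Cdh2) as they become mesoderm, while the visceral endoderm and trophoblast around the embryo stay epithelial.

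Whole E7.0 embryos were pooled and dissociated, and RNA and open chromatin were read from the same nuclei, with 1 library for each assay. The labels contradict each other: the titles, the age and the protocol describe E7.0 embryos, whereas the tissue and source fields name a section of the small intestine and the distal colon, the cell type field names goblet cells, and the strain field reads RedMUC298trTg. The goblet cell genes Muc2 and Tff3 had 17 and 6 UMIs (unique molecular identifiers, single RNA molecules) among the 145682614 UMIs of the kept nuclei. The summed level of the goblet and intestinal list was highest in visceral endoderm-like nuclei (102 CPM, UMIs per 1000000 UMIs, down to 5.59 in the lowest named class). From the few Muc2 and Tff3 UMIs and the titles, age and protocol, the nuclei are described as embryonic. Most marker lists of the embryonic lineages were highest in the class named for them, but the classes were named by these lists, so this is no support. The primitive streak list was an exception, highest in embryonic mesoderm-like nuclei (736 CPM). The lists with no accessibility class named for them were highest elsewhere, such as that of extraembryonic mesoderm in extraembryonic ectoderm-like nuclei (496 CPM). No genotype or treatment differs between the libraries, the number of embryos pooled is not given, and nuclei of 1 pool are not replicates. No difference here therefore has a test. Intervals are exact 95% intervals (Poisson for counts and their ratios, binomial for shares) that cover counting error only. For accessibility ratios they were computed on estimated fragments, not on the peak counts given.

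Both libraries hold the same 15341 barcodes, of which 12796 were kept as single nuclei, with a median of 10471 UMIs and 17350 peak counts. To keep the cadherins from defining the groups they are compared across, RNA was compared across groups made from accessibility without the peaks at these genes, and accessibility across groups made from RNA without the 118 genes of the cadherin superfamily. RNA levels are also given across these RNA groups, and in accessibility groups split by them. There the level and the group come from the same library. A group was given a cell type name, written with "-like", from marker lists, and the unnamed groups are called by their number and leading genes. One name needs care: of the 406 nuclei of the accessibility group named parietal endoderm-like, 30 lay in the RNA group of that name and 221 in the visceral endoderm-like RNA group. A group of 746 nuclei (accessibility cluster 10) had a median of only 1849 UMIs.

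Long genes can collect more intron UMIs in nuclear RNA, which was not measured here, so levels are also given per length of gene. These values were graded. They are averages over all kept nuclei, so a gene confined to few groups can have a low average. Cdh11 and Cdh3 had 85.8 and 82.0 CPM per 100 kb of gene over all kept nuclei. Cdh4 followed with 34.1, Cdh6 with 19.5 and Cdh20 with 13.8, and the lowest values were 7.96 for Cdh9, 6.88 for Cdh13 and 4.57 for Cdh8. All 8 passed the minimum of 500 UMIs, with 1492 (Cdh9) to 22712 (Cdh4) UMIs each. How far a gene was confined to some groups varied as widely. Over the 9 named accessibility classes of at least 100 nuclei, the highest class stood 8.96-fold over the lowest for Cdh3 and 14.0-fold for Cdh4. The same ratio was 85.5 for Cdh13, 109 for Cdh11 and 581 for Cdh20. The last is imprecise, as its lowest class had 4 UMIs (interval 0.10 to 0.99 CPM). No ratio is given for Cdh8 and Cdh9, whose lowest class had only 3 and 2 UMIs. Cdh4 was thus measured everywhere: even in the lowest class, the ectoplacental cone and giant cell-like nuclei, it had 29.9 CPM.

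**Figure D1:**
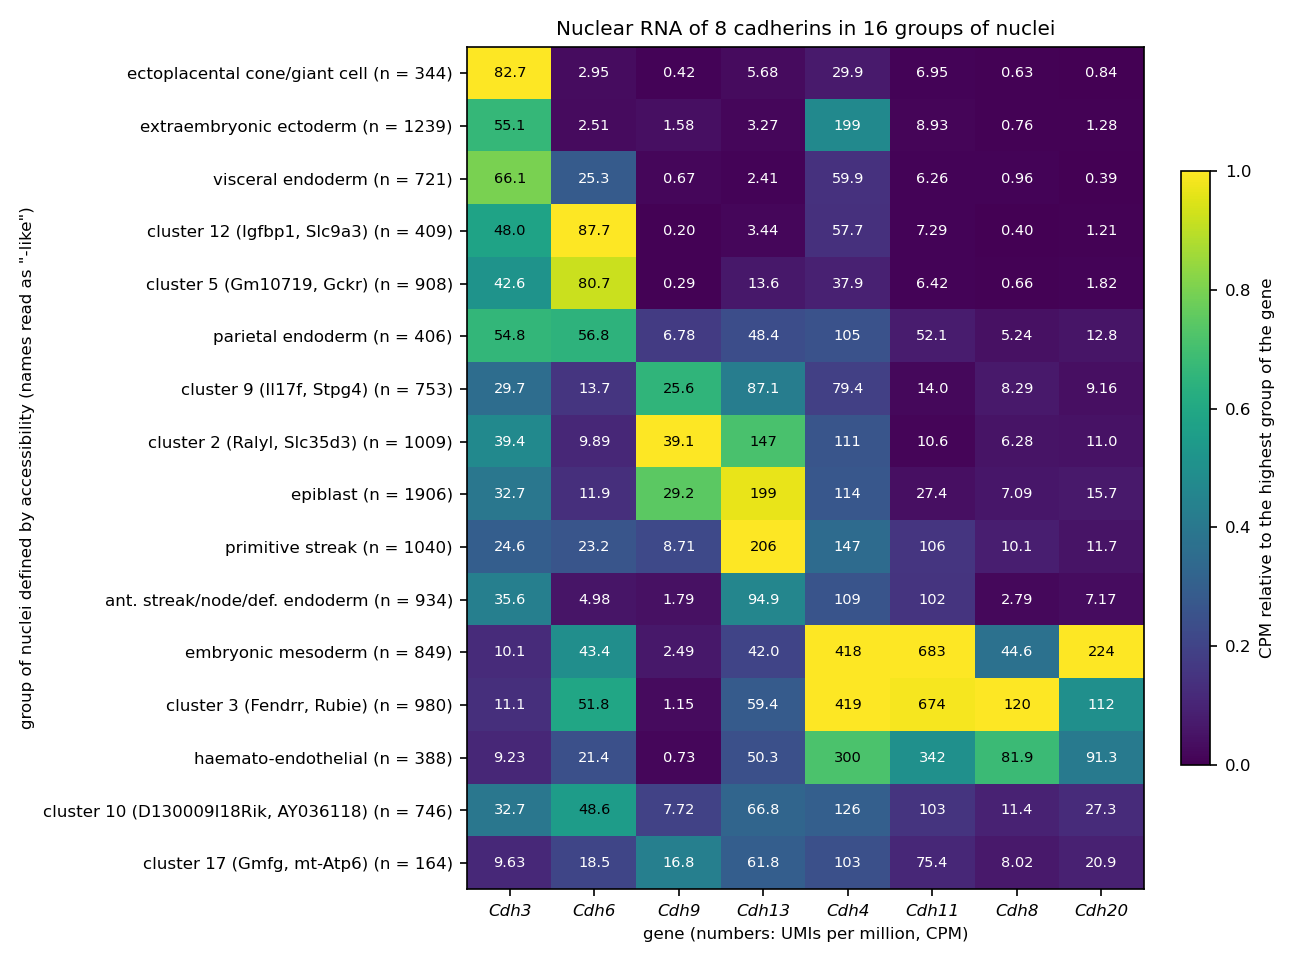
RNA of the 8 cadherins (columns, in CPM) in the 16 groups of nuclei defined by accessibility (rows, n is the number of nuclei), coloured relative to the highest group of each gene. Cdh3 is high in the trophoblast and endoderm rows at the top, Cdh6 is highest in clusters 12 and 5 and at most 2.95 in the trophoblast rows, Cdh9 is highest in cluster 2 and the epiblast row, Cdh13 in the epiblast and primitive streak rows, and Cdh4, Cdh11, Cdh8 and Cdh20 in the mesoderm rows, where Cdh11 reaches 683 and 674.

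Cdh11, Cdh20, Cdh8 and Cdh4 were the cadherins of the mesoderm. Cdh11 (OB-cadherin, a type II cadherin known from mesenchyme and bone) had 683 CPM in embryonic mesoderm-like nuclei (interval 666 to 701) and 674 (659 to 690) in accessibility cluster 3. That cluster was left unnamed because markers of both embryonic and extraembryonic mesoderm were raised in it, led by Fendrr and Rubie. These intervals overlap, so the order of these groups was not separated. Haemato-endothelial progenitor-like nuclei, the source of the first blood and vessels, had 342 CPM. Primitive streak-like nuclei had 106 CPM and anterior streak, node and definitive endoderm-like nuclei 102, a pair whose intervals also overlapped. Epiblast-like nuclei had 27.4 CPM and visceral endoderm-like nuclei, the lowest class, 6.26. Each step down this series left the one before it beyond counting error, apart from the pairs named and the lowest 3 classes (extraembryonic ectoderm-like, ectoplacental cone and giant cell-like, visceral endoderm-like). Nuclei of at least 5000 UMIs were thinned to 5000 UMIs, and shallower ones were left out of all thinned shares. Unthinned shares are over all nuclei of a class. Of 744 thinned embryonic mesoderm-like nuclei, 91.3% had a Cdh11 UMI (91.4% of all 849 unthinned). Of 716 thinned visceral endoderm-like nuclei, 2.65% had one (8.18% of all 721 unthinned). The medians were 10050 and 13059 UMIs, so the low share was not the shallower class. Whether the Cdh11 UMIs of visceral endoderm-like nuclei came from free RNA or from low expression was not tested.

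Cdh20, a type II cadherin, was more confined than Cdh11 within the same tissue. It had 224 CPM in embryonic mesoderm-like nuclei (214 to 234), 112 in cluster 3, 91.3 in haemato-endothelial progenitor-like nuclei and at most 15.7 in the other 7 named classes, down to 0.39 in visceral endoderm-like nuclei on 4 UMIs. After thinning, 48.9% of embryonic mesoderm-like nuclei had a UMI (59.4% unthinned) and 0.14% of visceral endoderm-like nuclei. Its level in embryonic mesoderm-like nuclei was 11.8-fold that of all other nuclei (11.1 to 12.5), the highest such ratio of the 8 genes across the named accessibility classes.

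Cdh8, a type II cadherin best known from synapses, lay more to the extraembryonic side of the mesoderm. Over the 9 named accessibility classes it still ran with Cdh20 (Pearson correlation of log2(CPM + 1) of 0.95). The contrast with Cdh20 is thus one within the mesoderm. Among the accessibility groups, Cdh8 was highest in cluster 3, with 120.1 CPM (114 to 127). Haemato-endothelial progenitor-like nuclei followed with 81.9 (73.4 to 91.1) and embryonic mesoderm-like nuclei with 44.6 (40.3 to 49.3). None of these intervals overlap, but the order of the last pair rested on mixed nuclei. Of the 388 haemato-endothelial progenitor-like nuclei, 98 were extraembryonic mesoderm-like by RNA and had 206 CPM, and the 270 that both assays named haemato-endothelial progenitor-like had 40.7 (33.8 to 48.7). Primitive streak-like nuclei had 10.1 CPM, and the visceral endoderm-like, extraembryonic ectoderm-like and ectoplacental cone and giant cell-like classes had 0.96 or less, with 3 UMIs in the last. Cluster 3 was itself a mixture: 490 of its nuclei lay in the RNA group named extraembryonic mesoderm-like and 440 in the one named embryonic mesoderm-like. Cdh8 had 195 CPM in the former and 55.8 in the latter, whereas Cdh20 had 72.8 and 163.

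The RNA-defined groups, made from the same library as these levels but without the cadherin superfamily genes, drew the same line more sharply. There, Cdh8 had 196 CPM in extraembryonic mesoderm-like nuclei and 39.5 in embryonic mesoderm-like nuclei, a ratio of 4.97 (4.50 to 5.50). Cdh20 ran the opposite way, with 77.2 and 204 CPM, a ratio of 2.64 in favour of the embryonic mesoderm (2.41 to 2.89). Cdh11 and Cdh4 hardly separated the classes: Cdh11 was 1.22-fold higher (1.18 to 1.26) and Cdh4 1.13-fold higher (1.08 to 1.18) in the extraembryonic mesoderm-like nuclei. The shares of nuclei followed these class levels. After thinning, 34.5% of extraembryonic mesoderm-like nuclei had a Cdh8 UMI alone, 10.3% a Cdh20 UMI alone and 8.65% both. Of embryonic mesoderm-like nuclei, 6.49% had Cdh8 alone, 40.2% Cdh20 alone and 5.88% both. The shares with both lay near the products of the separate shares (8.15% and 5.70%), so the nuclei added nothing beyond the levels of the classes. Haemato-endothelial progenitor-like nuclei, defined by RNA, had 7.87% and 19.3%, on the side of the embryonic mesoderm.

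**Figure D2:**
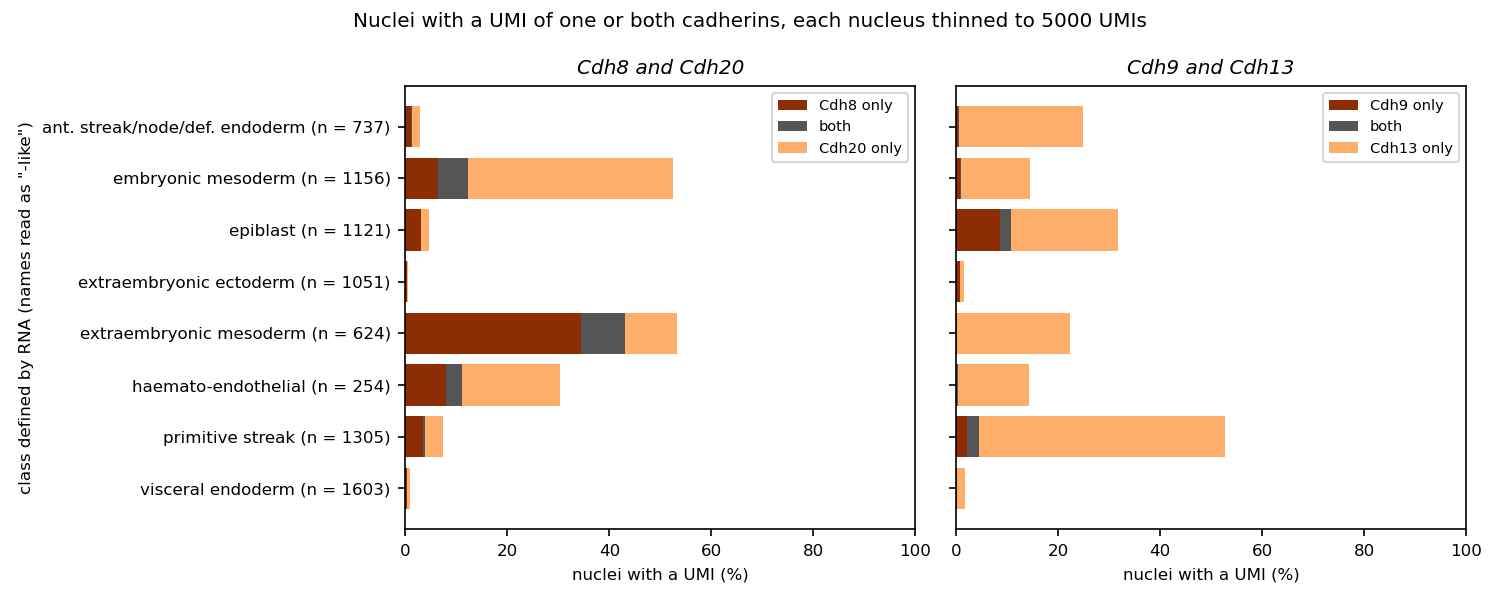
Share of nuclei (horizontal axis, percent) with a UMI of only one or both of 2 cadherins in the 8 named RNA classes, each nucleus thinned to 5000 UMIs (n is the number of nuclei that reach this depth). In the left panel the Cdh8 part is longest in extraembryonic mesoderm-like nuclei (34.5%) and the Cdh20 part in embryonic mesoderm-like nuclei (40.2%). In the right panel Cdh13 alone marks 48.3% of primitive streak-like nuclei, and the Cdh9 part is longest in epiblast-like nuclei (8.47%).

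Cdh4, the type I member of this group, known from the developing nervous system, kidney and muscle, was broad. It had 418 CPM in embryonic mesoderm-like nuclei (405 to 432) and 419 in cluster 3, which were not separated, and 300.2 in haemato-endothelial progenitor-like nuclei. Extraembryonic ectoderm-like nuclei, the trophoblast stem cell compartment, had 199 CPM, above the 147 of primitive streak-like and 114 of epiblast-like nuclei. Its share of nuclei with a UMI after thinning was 74.1% in embryonic mesoderm-like, 46.9% in extraembryonic ectoderm-like and 8.48% in ectoplacental cone and giant cell-like nuclei. The intervals of these neighbouring trophoblast classes lay far apart, at 193 to 206 CPM against 25.2 to 35.2.

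Mesoderm nuclei carried several of these genes at once. The set was chosen with the mesoderm cadherins described above in it, so nothing is read from the difference between classes in these counts. After thinning to 5000 UMIs, embryonic mesoderm-like nuclei had UMIs of 2.60 of the 8 cadherins on average, and 55.1% had 3 or more. Cluster 3 was alike, with 2.58 and 53.2%, and haemato-endothelial progenitor-like nuclei had 1.90 and 34.1%. The lowest classes were visceral endoderm-like nuclei with 0.60 and 0.42%, and ectoplacental cone and giant cell-like nuclei with 0.44 and 0.61%. Within RNA-defined embryonic mesoderm-like nuclei, 42.8% had both Cdh11 and Cdh20, 45.6% had Cdh11 without Cdh20 and 3.29% had Cdh20 without Cdh11.

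Cdh9 was highest in epiblast groups, and Cdh13 in the epiblast and the streak. Cdh9, a type II cadherin known from the nervous system, had 39.1 CPM in accessibility cluster 2 (35.4 to 43.1), an unnamed group led by Ralyl and Slc35d3 in which both epiblast and anterior ectoderm markers were raised. It had 29.2 CPM in epiblast-like nuclei (27.0 to 31.6), 8.71 in primitive streak-like nuclei and 2.49 in embryonic mesoderm-like nuclei. The remaining named classes had at most 6.78 CPM, the highest being the mixed parietal endoderm-like group, and ectoplacental cone and giant cell-like nuclei had 0.42 CPM on 2 UMIs. By RNA groups, Cdh9 was highest in cluster 0 (Nxph1, Kcnh8), a large group with raised epiblast and anterior ectoderm markers, where its 41.6 CPM were 4.35-fold the level of primitive streak-like nuclei (3.66 to 5.21). Thinned shares were low even there: 17.03% of cluster 0 nuclei (31.5% unthinned), against 0.19% of visceral endoderm-like nuclei (0.77% unthinned).

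Cdh13 stayed high where Cdh9 fell away. It had 206 CPM in primitive streak-like nuclei (198 to 214) and 199 in epiblast-like nuclei (193 to 205), which were not separated, and 147 in cluster 2. Anterior streak, node and definitive endoderm-like nuclei had 94.9 CPM, haemato-endothelial progenitor-like nuclei 50.3 and embryonic mesoderm-like nuclei 42.0. Visceral endoderm-like, extraembryonic ectoderm-like and ectoplacental cone and giant cell-like nuclei had 2.41, 3.27 and 5.68 CPM. The epiblast itself was uneven in it. By RNA groups, nuclei named epiblast-like had 70.2 CPM, against 199 in cluster 0 and 230.4 in primitive streak-like nuclei, which is 3.28-fold the epiblast-like value (3.04 to 3.55).

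Cdh3 was highest in the extraembryonic epithelia. Cdh3 (P-cadherin, named for the placenta) had 82.7 CPM in ectoplacental cone and giant cell-like nuclei (74.7 to 91.3), 66.1 in visceral endoderm-like nuclei (61.2 to 71.2) and 55.1 in extraembryonic ectoderm-like nuclei (51.7 to 58.8). Haemoglobin genes led the first of these clusters together with trophoblast genes, and 313 of its 344 nuclei lay in RNA cluster 11 (Olr1, Vgll1). Anterior streak, node and definitive endoderm-like and epiblast-like nuclei had 35.6 and 32.7 CPM, not separated, and primitive streak-like nuclei had 24.6. The lowest were embryonic mesoderm-like nuclei with 10.1 and haemato-endothelial progenitor-like nuclei with 9.23. Across the 9 classes Cdh3 ran opposite to the mesoderm cadherins (Pearson correlation of log2(CPM + 1) of -0.96 with Cdh8 and -0.93 with Cdh20), and these points share 1 library. Of RNA-defined visceral endoderm-like nuclei 24.3% had Cdh3 without Cdh11 and 0.56% had both, beside a product of the separate shares of 0.71%. Of embryonic mesoderm-like nuclei 85.1% had Cdh11 without Cdh3, 0.52% Cdh3 without Cdh11 and 3.29% both, beside a product of 3.37%. Thus 38 of the 44 embryonic mesoderm-like nuclei with a Cdh3 UMI also had Cdh11. These counts showed a division between class levels and none between single nuclei within a class. Whether free RNA contributed to the UMIs was not tested.

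Cdh6 (K-cadherin, known from the kidney) did not follow 1 lineage. Its highest accessibility groups were both unnamed and related to visceral endoderm: cluster 12 (Igfbp1, Slc9a3) with 87.7 CPM (79.6 to 96.3) and cluster 5 (Gm10719, Gckr) with 80.7 (76.0 to 85.6), not separated. The named classes followed with 56.8 in parietal endoderm-like, 43.4 in embryonic mesoderm-like and 25.3 in visceral endoderm-like nuclei. Trophoblast had the least, with 2.95 CPM in ectoplacental cone and giant cell-like and 2.51 in extraembryonic ectoderm-like nuclei. Splitting these groups by RNA placed the signal more closely. Within cluster 12, the 96 nuclei of RNA cluster 17 (Igfbp1, Slc9a3) had 230.5 CPM and the 309 visceral endoderm-like nuclei 33.2. The 32 nuclei named parietal endoderm-like by RNA had 168 CPM (130.1 to 214), whereas the 221 nuclei of the mixed group that were visceral endoderm-like by RNA had 42.7. RNA cluster 17, whose raised markers were those of parietal endoderm and of the goblet and intestinal list, had 194 CPM in all, 4.20-fold the visceral endoderm-like level (3.72 to 4.72), and 51.9% of its nuclei had a UMI after thinning, against 1.14% of extraembryonic ectoderm-like nuclei.

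For the count of genes past a fixed ratio, 3 of the 8 cadherins (Cdh8, Cdh11 and Cdh20) were at least 4-fold higher in some named accessibility class than in all other nuclei after 1 CPM was added to both levels, against 6.54% of the 12306 genes tested. With nothing added, an alternative tried after the data were seen, Cdh9 also passed, at 4.18-fold in epiblast-like nuclei (3.77 to 4.64), and 7.51% of all genes did. The genes were chosen for this contrast, so nothing is read from that share. Cdh11 and Cdh20 met it in embryonic mesoderm-like nuclei, where 0.544% of all genes did, and Cdh8 in haemato-endothelial progenitor-like nuclei, where 1.17% did. That call rested on the 98 nuclei of the class that were extraembryonic mesoderm-like by RNA: the 270 nuclei of that name in both assays were at 2.33-fold. The median of the 8 genes' highest log2 ratios was 1.80, beside 0.60 for all genes tested.

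Of the catenins and adaptors with enough UMIs, 1 of 12 (Ctnna2, the neural alpha-catenin) reached 4-fold in a named class, near the 6.54% of all genes. Of the type II cadherins 4 of 8 did (Cdh8, Cdh11, Cdh18 and Cdh20), of which all but Cdh18 had been picked for such differences, and of the type I cadherins 1 of 4 (Cdh2). Ctnnb1, the beta-catenin that links cadherins to the cytoskeleton, ranged only from 218 to 316 CPM over the 9 classes. Among the repressors of E-cadherin, 3 of 4 reached 4-fold (Snai1, Zeb1 and Zeb2). Snai1 is on the embryonic mesoderm marker list used to name the classes, so its call is in part built in. Cdh18 was the type II cadherin of the trophoblast, with 29.99 CPM in extraembryonic ectoderm-like and 28.0 in ectoplacental cone and giant cell-like nuclei and at most 7.86 elsewhere among the named classes. The best known cadherins set the frame. Cdh2 had 1005 CPM in embryonic mesoderm-like nuclei and the same in anterior streak, node and definitive endoderm-like nuclei, but Cdh11 was 683 in the one and 102 in the other. Cdh1 was 51.2 and 262 there.

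The genes whose levels most resembled each cadherin over the 9 named classes, by Pearson correlation of log2(CPM + 1), are named here as a description. For Cdh3 they were Cldn7, a tight junction claudin (0.98), Atox1 (0.98) and Map7 (0.97), and for Cdh20 they were Cacna1c, a calcium channel subunit (0.98), Pcdh11x, a protocadherin (0.98) and AA465934 (0.98). For Cdh8 they were Nlk (0.98), Vcan, the matrix proteoglycan versican (0.98) and Adamts3 (0.97), and for Cdh11 they were Kcnb2 (0.99), Crabp1 (0.98) and Pdgfrb (0.97). For Cdh9 they were genes known from neurons, Grin2b, a glutamate receptor subunit (0.98), Anks1b (0.98) and Syt11, a synaptotagmin (0.96), and for Cdh13 they included Cpe (0.996) and Lrch2 (0.99). Cdh4 resembled Rab26os (0.97), Schip1 (0.97) and Sntb2 (0.96), and Cdh6 resembled Gm36445, Nup153 and Mapk8 (0.97, 0.97 and 0.96). Some of these genes varied little: Nup153 ranged from 334 to 456 CPM and Rab26os from 20.4 to 34.6 CPM. The 9 points share a library, and correlations this high are easily reached over so few groups. The lists also depend on the processing: under the alternative tried, the 3 most alike genes moved for 7 cadherins and held for 1.

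Accessibility was not used to choose the genes. All 98 peaks within 50 kb of the starts had at least 50 counts: 30 at Cdh4, which the annotation gives several starts, 22 at Cdh3, 11 at Cdh6, 10 at Cdh8, 9 at Cdh11, 7 at Cdh20, 6 at Cdh13 and 3 at Cdh9. Where a gene has several starts, windows were placed at the lowest and the highest only. The highest Cdh4 start, 179893909, lies near the RefSeq end of the gene at 179899377, so part of its 30 peaks surround the 3′ end. Each gene was compared in the named RNA class with its highest RNA level, among classes of at least 100 nuclei, against all other nuclei. For Cdh6 this leaves out the 32 parietal endoderm-like nuclei, which had more of its RNA. Of Cdh20's peaks 3 of 7 were at least 2-fold higher in embryonic mesoderm-like nuclei (background 8.2% of peaks within 50 kb of any gene start), and of Cdh9's peaks 2 of 3 in epiblast-like nuclei (background 5.54%). In extraembryonic mesoderm-like nuclei (background 9.16%) the counts were 2 of 9 for Cdh11, 2 of 10 for Cdh8, 1 of 11 for Cdh6 and 2 of 30 for Cdh4, the last 2 genes near the background. Cdh3 had 2 of 22 in visceral endoderm-like nuclei (background 12.8%) and Cdh13 had 0 of 6 in primitive streak-like nuclei (background 2.47%). Together 14 of the peaks (14.3%) were higher, beside 9.40% for the same mix of classes, and 19 (19.4%) were at least 2-fold lower, beside 24.6%. Of these 19, 5 each lay at Cdh3 and Cdh8. The count of higher peaks depends on the groups: with unnamed RNA clusters allowed as the highest group it was 22.4%, beside 9.51%. Most of that rise lay at Cdh3, with 8 of 22 peaks higher in RNA cluster 11 (background 10.5%) in place of 2. Cdh6 had 2 in place of 1 and Cdh9 had 3 in place of 2, and the counts of the other genes were unchanged.

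At the starts themselves, accessibility followed the RNA to different degrees. At Cdh20, Cdh11 and Cdh9 the start was more accessible in the named class with the most RNA, with ratios of 2.01 to 2.38 over all other nuclei. Accessibility is given as peak CPM, counts in a peak per 1000000 peak counts. The peaks within 1 kb of Cdh20's start had 24.3 in embryonic mesoderm-like nuclei and 12.1 in all others, a ratio of 2.01 (1.78 to 2.26), and those of Cdh11 had 43.5 and 18.3 in extraembryonic mesoderm-like nuclei, a ratio of 2.38 (2.10 to 2.70). Cdh9 had 5.97 and 2.67 in epiblast-like nuclei, a ratio of 2.24 (1.65 to 2.99). Cdh20's start was not confined to that class: it had 26.2 in haemato-endothelial progenitor-like nuclei, where its RNA was 85.0 CPM, and 18.7 in epiblast-like nuclei, where its RNA was 4.68 CPM.

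The files' starts of Cdh8, Cdh13 and, less so, Cdh6 were open in the epiblast, streak and mesoderm classes at high and low RNA. They were low in some extraembryonic classes. Their ratios in the named class with the most RNA were 1.57 for Cdh8 (1.27 to 1.92), 1.34 for Cdh13 (1.08 to 1.65) and 1.22 for Cdh6 (1.02 to 1.46). Over the 15 RNA groups, the Pearson correlation of log2(CPM + 1) of RNA with that of the start peaks was 0.88 for Cdh13 and 0.72 for Cdh8, beside 0.83 for both Cdh11 and Cdh20, a description over groups of 1 pair of libraries. The Cdh8 start peak had 15.96 peak CPM in extraembryonic mesoderm-like nuclei and 16.5 in epiblast-like nuclei, although Cdh8 RNA was 196 CPM in the former and 6.15 in the latter. It fell to 1.54 in visceral endoderm-like and 3.01 in extraembryonic ectoderm-like nuclei. This peak also lies within 1 kb of the start of the noncoding gene A330008L17Rik, which had 203 UMIs in all, and the peak cannot be assigned to one of them. The Cdh13 start peak had 5.51 to 6.22 in the mesoderm-like, streak-like and epiblast-like named classes, 7.23 in haemato-endothelial progenitor-like nuclei, and 1.48 and 1.89 in extraembryonic ectoderm-like and visceral endoderm-like nuclei. The Cdh6 start peak had 8.07 in extraembryonic ectoderm-like nuclei and 3.73 in RNA cluster 11, against 11.3 to 21.0 in the other groups. The Cdh3 start peaks had 28.5 to 40.9 peak CPM in every named class except extraembryonic mesoderm-like (20.9) and haemato-endothelial progenitor-like (14.3) nuclei, where Cdh3 RNA was 14.2 and 4.70 CPM. Embryonic mesoderm-like nuclei had a start value of 28.5 at 9.11 CPM of RNA. Those of Cdh4 varied least, from 18.0 to 27.2 over the named classes.

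**Figure D3:**
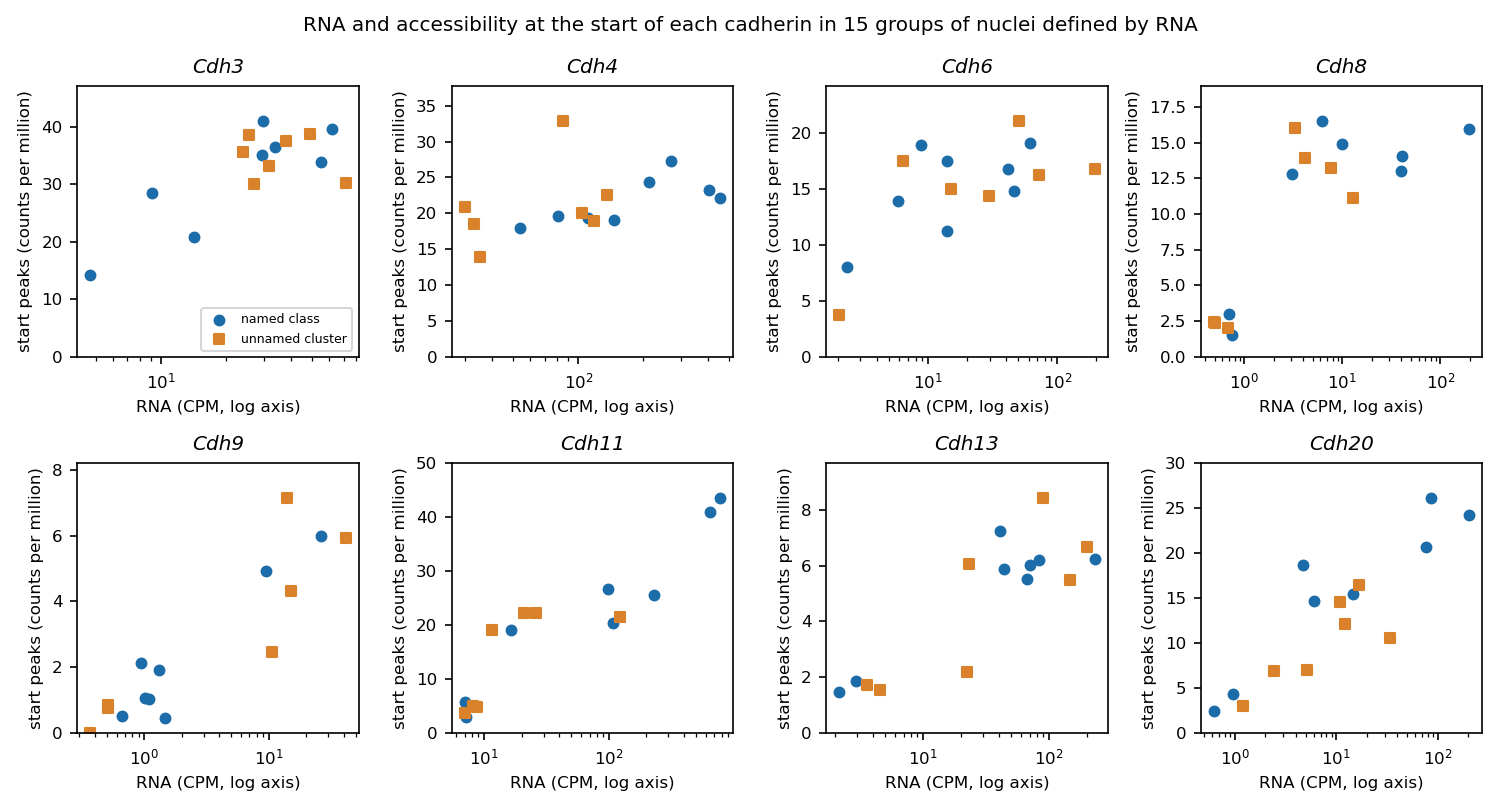
RNA of each cadherin (horizontal, CPM on a log axis) against accessibility of the peaks within 1 kb of its start (vertical, peak CPM) in the 15 RNA groups of at least 100 nuclei, with circles for named classes and squares for unnamed clusters. Cdh11, Cdh20 and Cdh9 rise along the axis, although Cdh20 reaches 18.7 in epiblast-like nuclei on little RNA, Cdh8 has a lower and an upper cloud, and Cdh4 lies between 13.9 and 32.8. The 15 points share 1 pair of libraries.

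Single peaks were most open in single groups. After the values had been seen, peaks were listed that were at least 4-fold more accessible in some RNA group of at least 100 nuclei than in all other nuclei, on at least 20 counts. They numbered 24 of 98 (24.5%), beside 24.1% of all peaks within 50 kb of any gene start, so such peaks were no more common here than elsewhere. Of the 12 peaks at starts, 1 was among them, at Cdh20, beside 9.32% of all peaks within 1 kb of a gene start. In 13 cases the RNA of the cadherin was higher in that group than outside it, and in 11 cases it was lower.

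**Figure D4:**
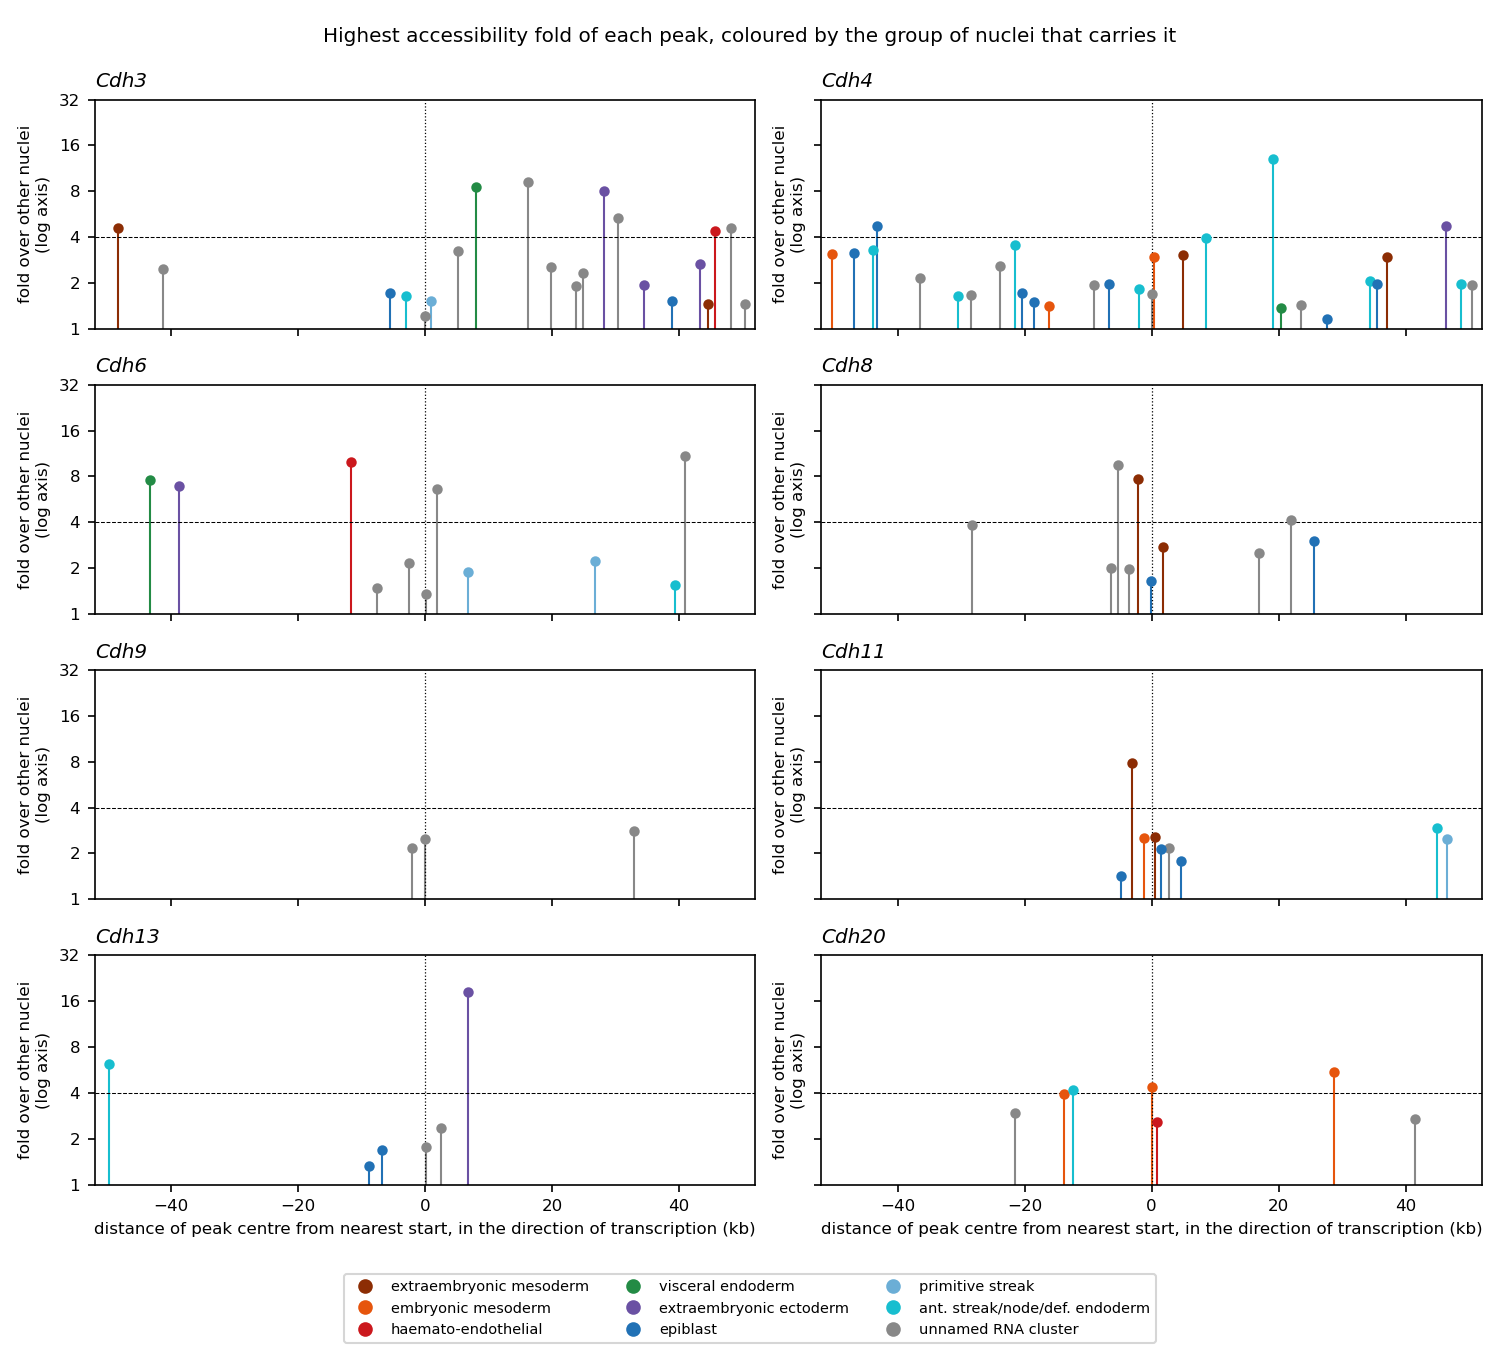
Each stem is a peak within 50 kb of a start of the cadherin: its distance from the nearest start in the direction of transcription (horizontal, kb) and its ratio of accessibility in the most open RNA group over all other nuclei (vertical, log axis), coloured by that group; peaks with too few counts there are left out and the dashed line is 4-fold. Cdh3 has separate peaks for visceral endoderm (8.51-fold), extraembryonic ectoderm (8.04-fold) and an unnamed trophoblast-marked cluster (9.14-fold), and the tallest stem of all, 18.3-fold, is the extraembryonic ectoderm peak of Cdh13.

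Cdh3 had internal peaks that were highest in different extraembryonic epithelia. The peak at chr8:106518492-106519411 (mm10), 8060 bp downstream of the start and inside the gene, had 18.4 peak CPM in visceral endoderm-like nuclei and 2.16 in all others, a ratio of 8.51 (7.12 to 10.2), and 0.74 in extraembryonic ectoderm-like nuclei. The peak at chr8:106538567-106539464, 28124 bp downstream, had 40.2 in extraembryonic ectoderm-like nuclei and 1.92 in visceral endoderm-like nuclei, with a ratio of 8.04 over all others (7.05 to 9.17). The peak at chr8:106526762-106527517, 16248 bp downstream, was highest in RNA cluster 11, the group led by Olr1 and Vgll1, with 35.8 (ratio 9.14, 7.50 to 11.1). It had 22.8 in extraembryonic ectoderm-like and 6.90 in visceral endoderm-like nuclei. The epiblast-like value was 1.21, 3.999 and 1.86 at these 3 peaks in that order, while Cdh3 RNA was 29.3 CPM there.

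Cdh8 and Cdh11 each had a peak upstream of the files' start that was highest in the class with the most RNA, and for Cdh20 it was the start peak itself. For Cdh8, chr8:99418245-99419131, 2217 bp upstream, had 7.74 peak CPM in extraembryonic mesoderm-like nuclei, 4.24 in embryonic mesoderm-like nuclei, 3.83 in haemato-endothelial progenitor-like nuclei and no count in epiblast-like nuclei. Its ratio over all other nuclei was 7.69 (5.39 to 10.8), and between the mesoderm classes it was 1.83 (1.21 to 2.75), in the direction of the RNA. This peak lies within 1 kb of the RefSeq beginning of Cdh8, at 99417666, and was not counted among the start peaks above. For Cdh11, chr8:102788241-102789132, 3044 bp upstream, had 6.30 in extraembryonic mesoderm-like and 2.34 in embryonic mesoderm-like nuclei, a ratio of 2.69 (1.63 to 4.49), where the RNA ratio was 1.22. For Cdh20, chr1:104768319-104768782, had 14.7 in embryonic mesoderm-like and 7.10 in extraembryonic mesoderm-like nuclei, a ratio of 2.07 (1.53 to 2.84), and at most 5.15 in the other named classes. Its second start peak, centred 767 bp downstream, differed: it was highest in haemato-endothelial progenitor-like nuclei, with 22.1, and had 9.54 in embryonic mesoderm-like nuclei. A peak 28769 bp downstream, chr1:104796873-104797723, had 3.25 in embryonic mesoderm-like nuclei (5.51-fold over all others, 3.63 to 8.29) and 2.23 in extraembryonic mesoderm-like nuclei, a ratio of 1.45 whose interval includes equal levels (0.79 to 2.83).

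The Cdh20 start peak covers 201 of the 250 bases before the start that the RefSeq promoter table uses, and the single peak at the start of Cdh8 covers all 250. The RefSeq genes themselves begin further upstream, at 104768340 for Cdh20 and 99417666 for Cdh8. Part of the first window and all of the second therefore lie inside the gene. Both windows are shown because the RNA of these genes differed in opposite directions between the embryonic and extraembryonic mesoderm-like classes. They are the plus strand of chr1:104768270-104768519 and the minus strand of chr8:99416472-99416721 (RefSeq, GRCm38.p6), read in the direction of the gene. Capitals mark matches on either strand to 8 motifs searched (the E-box CAGGTG, the GATA motif AGATAA, the TATA box TATAAA, the CCAAT box CCAAT, the GC box GGGCGG, the TEAD motif GGAATG, the forkhead motif TGTTTAC and the SOX motif AACAAT).
Cdh20: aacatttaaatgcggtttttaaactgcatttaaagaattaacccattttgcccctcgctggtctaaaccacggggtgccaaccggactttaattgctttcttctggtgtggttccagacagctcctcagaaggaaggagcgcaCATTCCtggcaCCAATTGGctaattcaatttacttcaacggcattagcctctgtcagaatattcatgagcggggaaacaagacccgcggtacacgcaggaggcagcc
Cdh8: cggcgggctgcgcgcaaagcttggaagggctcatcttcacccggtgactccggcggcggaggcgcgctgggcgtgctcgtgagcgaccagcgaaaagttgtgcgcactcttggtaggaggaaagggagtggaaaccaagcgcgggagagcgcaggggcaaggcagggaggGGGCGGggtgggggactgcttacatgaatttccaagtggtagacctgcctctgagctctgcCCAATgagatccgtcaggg
Cdh20 holds CCAAT on both strands, overlapping at positions -96 to -89 before the start, and GGAATG on the reverse strand at -107. Cdh8 holds GGGCGG at -80 and CCAAT at -19. CCAAT is in 33.8% of the 32851 promoters of this length in the table, GGGCGG in 32.7% and GGAATG in 12.6%, so none of these is rare. The other 5 motifs are in 3.17% to 17.2% of promoters and in neither sequence, which says only that these letters are not in these windows. The base composition differs more: Cdh8 is 64.4% G and C with 20 CG pairs, above 81.6% of promoters, and Cdh20 is 47.6% with 10, above 32.4%.

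Cdh6 had peaks for several of its groups. The peak 1886 bp downstream of the files' start, inside the gene, chr15:13171366-13172213, had 22.7 peak CPM in RNA cluster 17, the group with the highest Cdh6 RNA, and 13.7 in visceral endoderm-like nuclei, against 0.52 to 5.32 in the other groups (6.66-fold in cluster 17 over all others, 4.40 to 9.71). A peak 40911 bp downstream of that start, inside the gene, chr15:13132355-13133174, had 5.12 in RNA cluster 9 (Gm10719, Gm21738) and at most 1.49 elsewhere. A peak 11686 bp upstream, chr15:13184905-13185817, was open in haemato-endothelial progenitor-like nuclei (5.96) and extraembryonic mesoderm-like nuclei (3.83), and had no count in RNA cluster 17. Cdh6 RNA was 14.1 CPM in the first of these and 61.1 in the second.

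Some peaks were most open in a group where the RNA of the cadherin was low or below that of other nuclei. The peak 6767 bp downstream of the files' start of Cdh13, inside the gene, chr8:118290116-118290884, had 5.06 peak CPM in extraembryonic ectoderm-like nuclei and 0.28 in all others, a ratio of 18.3 (11.5 to 29.3) on 96 of its 154 counts, but Cdh13 RNA there was 2.15 CPM. The peak 38711 bp upstream of Cdh6, chr15:13211937-13212836, had 5.54 in the same class (6.89-fold, 4.82 to 9.77), where Cdh6 RNA was 2.34 CPM. A peak past the 3′ end of Cdh4, chr2:179912636-179913464, had 10.999 in anterior streak, node and definitive endoderm-like nuclei and 0.85 in all others (13.0-fold, 9.58 to 17.5), where Cdh4 RNA was 110.4 CPM, 0.70-fold that of other nuclei. A peak near a gene may belong to another gene, and none of these was tied to its cadherin by more than distance.

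The starts of Cdh6 and Cdh9 lie on the same chromosome, and their promoters in the RefSeq table share a run of 15 bases, looked for after the sequences had been seen. Positions are counted from the start that the promoter table uses. Both runs lie inside the RefSeq genes, which begin at 13176407 (Cdh6) and 16728550 (Cdh9). The run is at positions -18 to -4 of Cdh6 (minus strand, chr15:13173676-13173708 shown) and -209 to -195 of Cdh9 (plus strand, chr15:16728691-16728735 shown), in capitals here.
Cdh6: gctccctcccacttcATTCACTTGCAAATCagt
Cdh9: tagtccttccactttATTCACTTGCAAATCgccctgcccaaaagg
No promoter other than these 2 of the 32851 holds this run. A run of 15 or more bases is shared by 0.140% of all pairs of genes in the table, and 99.6% of genes share one with at least 1 other gene. The other 5 pairs among the 4 cadherins with a promoter in the table share at most 13 bases on the same strand. Both windows lie inside the start peak of their gene. In epiblast-like nuclei these peaks had 18.95 peak CPM for Cdh6 and 5.97 for Cdh9, and in visceral endoderm-like nuclei 14.9 and 0.51.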

How the data were processed

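Nuclei of pooled E7.0 embryos were profiled for RNA and accessibility together. Per the submitters' processing notes, reads were processed with Cell Ranger ARC 2.0.0 on mm10. The deposited matrix holds raw UMI counts per gene and raw counts per peak, and the authors' peaks were used as given. Barcodes with over 20% mitochondrial UMIs were dropped, as were those under 1000 UMIs, 1000 peak counts or 500 detected genes, and Scrublet (scanpy 1.11.5, called on 7.52% of barcodes) removed 1100 doublets. Leiden clustering (leidenalg 0.10.2, resolution 1) used 30 principal components of 2000 genes, or TF-IDF vectors of peaks scored as present or absent. Of the 30 such vectors, the first was dropped as one that follows depth, as it was from the 20 of the alternative setting. Clusters were named by marker lists, by a naming rule set after the data were seen: 11 of 18 accessibility clusters (61.2% of nuclei) and 13 of 21 RNA clusters (65.9%). CPM is summed UMIs (or peak counts) per 1000000 of the group's total, and folds were read with 1 CPM added where genes are called. The self-test on simulated data was run with known ratios. Genes named are the 8 cadherins, members of family lists with at least 500 UMIs and, per cadherin, the 3 most alike genes, of which 1 is not reported here. Peaks named are the start peaks, the 2 with the highest ratio in the matching class, and those listed after the values were seen. Members and lists were chosen with earlier results of these data known.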

Additional observations from a re-analysis of the deposited data

How the results depend on the processing

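The highest named class was the same for 8 of 8 cadherins with the mean of nuclei, classes of at least 30 nuclei and the 3 settings added after the data were seen (without low-depth clusters, without the deepest 5% of nuclei, and parietal endoderm-like only where both assays gave that name). The limit of 30 nuclei could not move it, as the smallest named accessibility class held 344. Leaving out low-depth clusters could not either, as the only such cluster (746 nuclei) was unnamed. The highest class was the same for 7 at 2000 UMIs and 2000 peak counts, with doublets kept, with 20 vectors and with all peaks used, where Cdh6 moved each time. It was the same for 5 at resolution 0.5 (not Cdh3, Cdh6 and Cdh13), 5 at resolution 2 (not Cdh6, Cdh8 and Cdh11), 3 with RNA clusters and 3 with single accessibility clusters. The median ratio of the highest class over all other nuclei was 3.60 and ranged from 3.07 to 5.02 over these settings. Single genes were less steady. Over genes and settings, their ratio moved in 59 cases and held in 45, and their CPM in the highest class moved in 46 and held in 58. The share of nuclei with a UMI in the highest class moved in 13 cases and held in 3. Cdh6 had 180.3 CPM in nuclei named parietal endoderm-like by both assays, beside 56.8 for the whole group. With 5 CPM added, 4.05% of all genes reached 4-fold in place of 6.54%, and the count of such cadherins was 3 in both. With no pseudocount (added after the data were seen) it was 4, beside 7.51%. Peaks near the cadherins that were higher in the matching class made up 23.5% at resolution 0.5 (background 8.99%), 23.5% with doublets kept (background 7.83%), 22.4% with unnamed RNA clusters allowed (added after the data were seen, background 9.51%) and 9.18% at 3-fold, where the background was 4.65%. The rise to 22.4% lay mostly at Cdh3. No paired analysis was possible because each assay has 1 library and no group has a replicate. Depth limits the lowest levels: a level near 0.4 CPM rests on 4 UMIs or fewer in these classes.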
